A study of Mus musculus with 8 samples.

Results

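Brain T cells of mice given interleukin-5 (IL-5) were compared with brain T cells of mice given phosphate-buffered saline (PBS), as 2 sequencing libraries against 2. These 4 libraries, chosen by their labels, are part of a series of 8, and the other 4 are microglia under the same treatments. All mice were C57BL/6 and 20 to 22 months old, and the treated ones were injected with 2 µg of IL-5 a day for 2 days. The cells were sorted from the brain by surface markers that are not named in the sources used here. The labels do not say whether a library came from 1 mouse or from a pool, so every p-value below measures the spread between these libraries, which may be technical.

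T cells patrol the brain in small numbers, and in old age CD8 T cells, the cytotoxic lineage, accumulate near the choroid plexus, the ventricle walls and the white matter. Such cells read antigen through the T cell receptor and its CD3 chains, with CD8 as coreceptor for MHC class I, and many carry residency receptors such as CXCR6 and respond to interferons. IL-5 is a type 2 cytokine best known for acting on eosinophils and B cells through a receptor made of a specific chain, Il5ra, and a shared chain, Csf2rb.

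No gene passed the test. Of 13897 genes tested with the edgeR quasi-likelihood test, 0 were higher and 0 lower after IL-5 at an adjusted p under 0.05, which is 0%, and the smallest adjusted p was 0.999925. At an unadjusted p under 0.05, 355 genes were higher (2.55%) and 245 lower (1.76%). Both IL-5 values exceeded both PBS values in 18.1% of the genes, and both were smaller in 17.3%. Genes of either kind are called apart below. The words higher and lower below therefore describe measured values, and a group of genes is read against those shares and against the median log2 fold change (IL-5 over PBS) of all genes tested, -0.01. DESeq2 called 177 genes higher (1.15%) and 51 lower (0.332%) of 15373 with an adjusted p, and 106 of the 177 and 32 of the 51 stood at 0 in both libraries of the other group. Levels are counts per 1000000 gene counts (CPM) after TMM scaling, a method that sets the bulk of genes level between libraries. Errors of fold changes are model standard errors (SE), with n = 2 libraries per group.

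The 4 libraries held 25737255 to 29863552 gene counts. Their profiles were uneven: log2 CPM correlated across genes at 0.70 within the PBS pair, at 0.73 within the IL-5 pair, and at 0.75 and 0.78 between IL-5 replicate 2 and the PBS libraries. IL-5 replicate 1 stood apart on the first principal component (46.3% of the variance), at 197 against -108 to -32.4 for the other libraries. The median SE of a log2 fold change was 3.09 for genes under 5 CPM on average, 1.02 from 5 to 50 CPM, 0.387 from 50 to 500 CPM and 0.182 above, so only well expressed genes could be measured closely.

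The libraries carried the RNA of CD8 T cells. Per kilobase of exon, Cd8b1 averaged 673 CPM over the 4 libraries, Cd3d 331, Cd3g 308, Cd8a 186 and Cd3e 155, against 14.5 CPM per kilobase for Cd4, the coreceptor of helper cells, and 2.58 for Foxp3, the factor of regulatory T cells. Cxcr6, a chemokine receptor of resident T cells, averaged 445 CPM per kilobase and Gzmk, a granzyme of memory cells, 272, while Itgae, the alpha chain that pairs with the integrin beta chain Itgb7 on many resident cells, averaged 3.20. P2ry12, a marker of microglia, measured between 0 and 2.16 CPM, and S100a8, a marker of neutrophils, between 0 and 11.6 CPM. The 16 microglia markers together summed to 429 and 426 CPM with PBS and 636 and 401 CPM with IL-5. The 15 neutrophil markers summed to 45.6 and 170 CPM with PBS and 23.4 and 180 CPM with IL-5. RNA of other tissues was present. The 13 endothelial and mural markers summed to 4042 and 3720 CPM with PBS and 5222 and 2428 CPM with IL-5, and the 12 oligodendrocyte markers to 1802 and 2811 CPM and 2385 and 2370 CPM, beside 4825 and 5660 CPM and 3914 and 4696 CPM for the 16 T cell markers. The choroid plexus gave the most: Ttr, which encodes the thyroid hormone carrier transthyretin secreted by the choroid plexus, was the most abundant transcript in every T cell library.

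**Figure D1:**
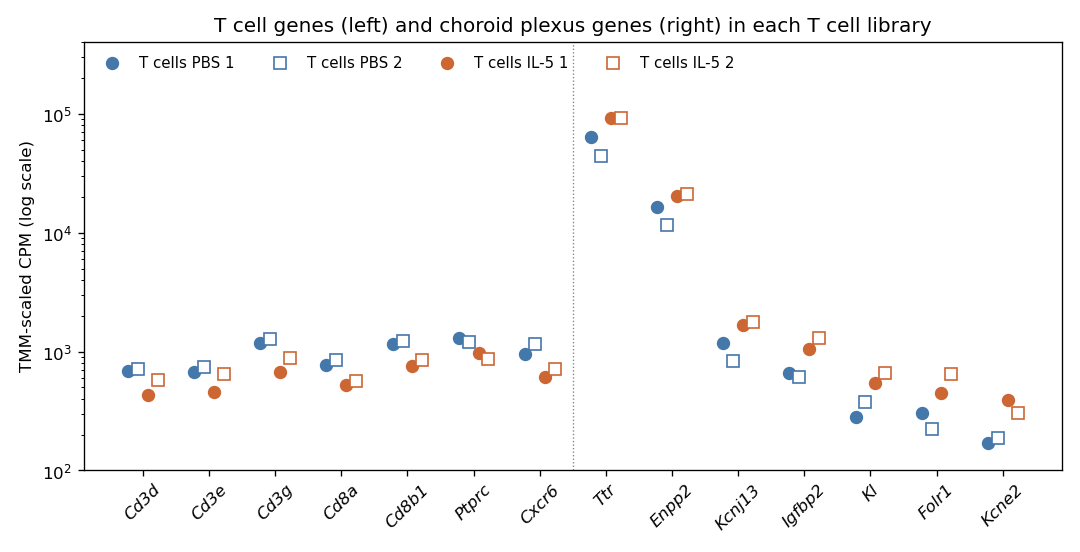
Levels of 7 T cell genes (left of the dotted line) and 7 choroid plexus genes (right) in each library, in TMM-scaled CPM on a log axis, with PBS libraries in blue, IL-5 libraries in orange, replicate 1 filled and replicate 2 open. For each T cell gene drawn both IL-5 points lie below the PBS points, and for each choroid plexus gene above them. The genes drawn are a selection and do not show all members of the lists. Of the 16 T cell markers, 10 were below 0 and 6 above, with 5 apart and lower (31.25%) and 1 apart and higher (6.25%). Of the 19 choroid plexus markers, 15 were apart and higher (78.9%). Of all genes, 17.3% were apart and lower and 18.1% apart and higher.

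The CD3 chains Cd3d, Cd3e and Cd3g and both CD8 chains were lower in both IL-5 libraries. Cd3g, a signalling chain of the receptor complex (GRCm38 chromosome 9, 44969572 to 44980431), measured 1186 and 1269 CPM with PBS and 675 and 892 CPM with IL-5 (log2 fold change -0.65, SE 0.19). Cd3d, another CD3 chain, measured 685 and 712 CPM with PBS and 430.1 and 577 CPM with IL-5 (log2 fold change -0.47, SE 0.20). Both coreceptor chains shared this pattern, and the groups did not overlap for any of the 4 genes. Cd8a measured 766 and 846 CPM with PBS and 522 and 569 CPM with IL-5 (log2 fold change -0.56, SE 0.16). Cd8b1 measured 1163 and 1232 CPM with PBS and 753 and 845 CPM with IL-5 (log2 fold change -0.58, SE 0.15). Cd3e, the chain on which the complex assembles, differed less, with 669 and 746 CPM with PBS and 458 and 652 CPM with IL-5 (log2 fold change -0.35, SE 0.22). Cd247, the zeta chain of the receptor complex, overlapped between groups (152 and 271 CPM with PBS and 167 and 173 CPM with IL-5; log2 fold change -0.32, SE 0.33). By the wider list of 16 T cell markers, 10 were below 0 and 6 above, with a median of -0.20, which turned to 0.19 without PBS replicate 2 and was 0.38 against the mean of Cd3d, Cd3g, Cd8a and Cd8b1, a scale explained below. Its members above 0 include Cd28, the costimulatory receptor (log2 fold change 0.20, SE 0.29), and Tcf7, a transcription factor of naive and memory cells (log2 fold change 0.22, SE 0.29). Cd4 measured 30.8 and 71.1 CPM with PBS and 71.2 and 59.9 CPM with IL-5, with overlapping groups (log2 fold change 0.36, SE 0.53; -0.12 without PBS replicate 1).

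Choroid plexus transcripts differed in the other direction. All 19 measured markers of that epithelium were above 0, with a median log2 fold change of 0.84 (0.55 without PBS replicate 2, and 1.40 on the scale of the 4 T cell genes explained below), and in 15 of 19 (78.9%) the groups were apart and higher. Their summed level was 86675 and 60012 CPM with PBS and 120267 and 122802 CPM with IL-5, that is 8.67% and 6.00% of the scaled total against 12.03% and 12.3%. Ttr measured 64482 and 44010.3 CPM with PBS and 91942 and 92589.7 CPM with IL-5 (log2 fold change 0.77, SE 0.18). Enpp2, the secreted enzyme autotaxin, measured 16596 and 11719.9 CPM with PBS and 20274 and 21124 CPM with IL-5 (log2 fold change 0.55, SE 0.18). Kcnj13, a potassium channel of the epithelium, measured 1172 and 835 CPM with PBS and 1669 and 1762 CPM with IL-5 (log2 fold change 0.77, SE 0.20). Igfbp2, an insulin-like growth factor binding protein (GRCm38 chromosome 1, 72824503 to 72852474), was among the 8 higher genes with the smallest p (667 and 607 CPM with PBS and 1047 and 1295 CPM with IL-5; log2 fold change 0.88, SE 0.18). DESeq2 called 7 of the 19 higher, beside 1.15% of all genes with an adjusted p. PBS replicate 2 held the least of this RNA and the IL-5 libraries the most. The choroid plexus share thus moved with the treatment beside every gene list described below, and its part in those results was not tested. In bulk RNA, fewer T cells in a sort and less RNA of a gene per T cell cannot be told apart.

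Genes were also described against 4 T cell genes rather than the whole library. For this the counts were scaled so that Cd3d, Cd3g, Cd8a and Cd8b1 had the same mean log2 CPM in each library. These 4 genes need not track the T cell content: on their scale 14 of the 16 T cell markers were above 0, with a median of 0.38. The setting was chosen after the data were seen. It moves the median of all genes from -0.01 to 0.56, since the 4 genes themselves are lower under TMM, and it leaves 39.6% of genes apart and higher and 5.69% apart and lower. A list median near 0 on this scale says that its genes kept pace with the CD3 and CD8 chains. The medians of the lists below are given on both scales, and counts of genes apart are on the TMM scale unless said otherwise.

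**Figure D2:**
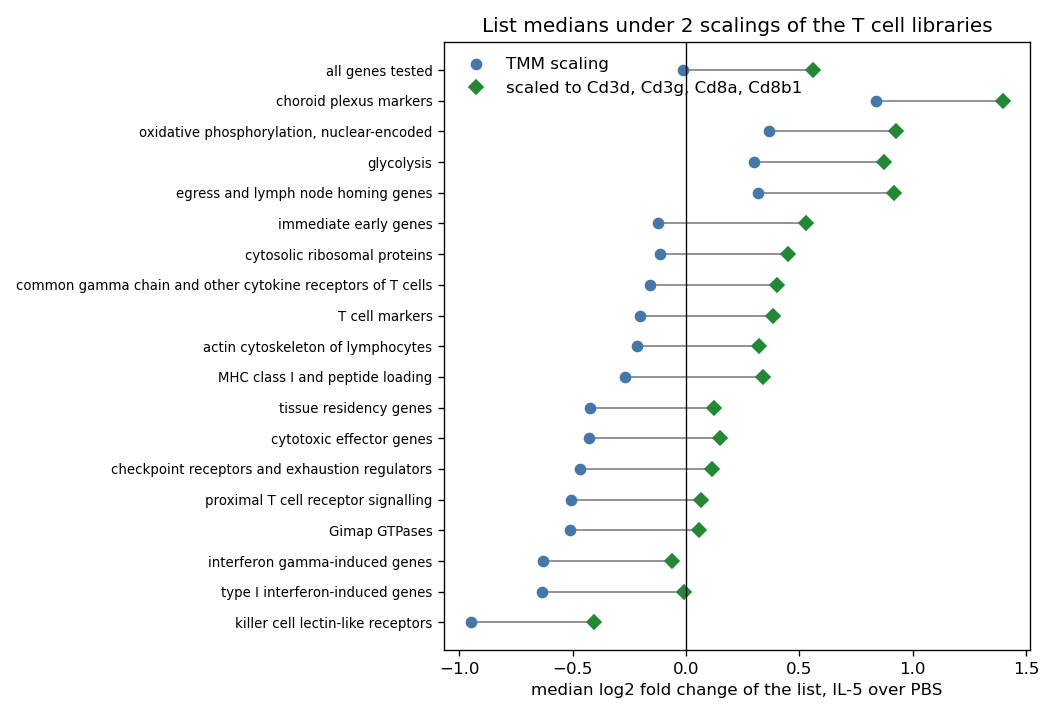
Median log2 fold change (IL-5 over PBS) of 18 gene lists and of all genes tested, under TMM scaling (blue circles) and after scaling to 4 T cell genes (green diamonds). Every median drawn moves to the right, and that of all genes reaches 0.56. The receptor signalling and interferon lists come to lie near 0. The killer cell lectin-like receptors stay below 0 at -0.40, and oxidative phosphorylation reaches 0.93.

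Genes of proximal T cell receptor signalling, the kinases, adaptors and phosphatases next to the receptor, were mostly lower under TMM scaling. Of 36 tested, 29 were below 0 and 7 above, the groups were apart and lower in 19 (52.8%) and apart and higher in 2 (5.56%), and the median of -0.51 became 0.07 against the 4 T cell genes. On that scale 12 of the 36 (33.3%) were apart and higher and 3 (8.33%) apart and lower, beside 39.6% and 5.69% of all genes. The count of genes apart thus depended on the scale. Against the median of all genes the list stood at -0.50 on either scale. Lck, the kinase that starts receptor signalling, measured 914 and 1106 CPM with PBS and 510.01 and 763 CPM with IL-5 (log2 fold change -0.67, SE 0.24). Fyn, its relative, measured 516 and 580.3 CPM with PBS and 393 and 369.7 CPM with IL-5 (log2 fold change -0.52, SE 0.18). Its phosphatase-family members differed in direction. Ptpn22, a phosphatase that restrains Lck (GRCm38 chromosome 3, 103859795 to 103912247), measured 432 and 369.5 CPM with PBS and 216 and 226 CPM with IL-5 (log2 fold change -0.86, SE 0.20). Ptpn6, the phosphatase SHP-1, measured 265 and 258 CPM with PBS and 140.1 and 151 CPM with IL-5 (log2 fold change -0.84, SE 0.22). For both genes the PBS libraries lay well above the IL-5 libraries, and their values stayed below 0 against the 4 T cell genes, at -0.28 and -0.27. Ubash3a, a suppressor of receptor signalling with a phosphatase-like domain, overlapped (206 and 131 CPM with PBS and 53.3 and 153 CPM with IL-5). Its relative Ubash3b, named after its values were seen, was higher in both IL-5 libraries (10.5 and 8.46 CPM with PBS and 24.2 and 16.4 CPM with IL-5). Nfatc3, a transcription factor switched on by calcium, gave log2 fold change -0.72, SE 0.27, and Ptprc, the phosphatase CD45 of all leukocytes, log2 fold change -0.45, SE 0.15.

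Cytotoxic effector genes, which hold the granule proteases, death ligands and cytokines of killer cells, split by member. Of 20 tested, 15 were below 0 and 5 above. In this list 10 were apart and lower (50%) and 1 apart and higher (5%), beside 17.3% and 18.1% of all genes. The median was -0.43 (-0.15 without PBS replicate 2, and 0.15 against the 4 T cell genes). On the scale of the 4 genes 6 were apart and higher (30%) and 2 apart and lower (10%), beside 39.6% and 5.69% of all genes. Fasl, the ligand of the death receptor Fas, measured 201 and 226 CPM with PBS and 77.2 and 134 CPM with IL-5 (log2 fold change -1.02, SE 0.34). Tnfsf10, the death ligand TRAIL, measured 137 and 93 CPM with PBS and 48.4 and 59.1 CPM with IL-5 (log2 fold change -1.10, SE 0.38). Both stayed below 0 against the 4 T cell genes, at -0.47 and -0.54. Gzmk measured 364 and 568 CPM with PBS and 253 and 324 CPM with IL-5 (log2 fold change -0.69, SE 0.28). Gzmb, the granzyme that cleaves caspases, measured 106 and 175 CPM with PBS and 87 and 64.7 CPM with IL-5 (log2 fold change -0.89, SE 0.38). The most abundant members were Ccl5, a chemokine that attracts T cells and monocytes (2109.9 and 3119.7 CPM with PBS and 2003 and 1987 CPM with IL-5), and Nkg7, a granule membrane protein (1854 and 2431 CPM with PBS and 1388 and 1787 CPM with IL-5). Ifng, the cytokine interferon gamma, overlapped between groups with 159 and 201 CPM with PBS and 184 and 155 CPM with IL-5 (log2 fold change -0.089, SE 0.26), and its sign turned under several settings. Tnf, the cytokine tumour necrosis factor, measured 96.3 and 58.1 CPM with PBS and 25.9 and 51.5 CPM with IL-5 (log2 fold change -0.997, SE 0.54).

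The killer cell lectin-like receptors, a family shared by natural killer cells and effector CD8 cells, had the lowest median of the T cell state lists, -0.95 (-0.54 without PBS replicate 1). Of 12 tested, 10 were below 0 and 7 were apart and lower (58.3%), beside 17.3% of all genes. The median was -0.40 against the 4 T cell genes. On that scale 3 were apart and lower and 3 apart and higher (25% each), beside 5.69% and 39.6% of all genes. Klrk1, the activating receptor NKG2D, measured 292 and 181 CPM with PBS and 85.6 and 110.2 CPM with IL-5 (log2 fold change -1.27, SE 0.33). Klrd1, the CD94 chain that pairs with Klrc receptors, measured 172 and 92.8 CPM with PBS and 45.1 and 79.6 CPM with IL-5 (log2 fold change -1.08, SE 0.47). The groups did not overlap for either, although the PBS libraries also differed from each other. Klrc1, the inhibitory partner of CD94, was nearly level (70.9 and 67 CPM with PBS and 66.3 and 54.6 CPM with IL-5; log2 fold change -0.19, SE 0.38). Klrb1c and Ncr1, markers of natural killer cells, averaged 10.3 and 8.55 CPM.

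Checkpoint receptors and exhaustion regulators restrain chronically stimulated T cells. Of 16 tested, 11 were below 0, 5 were apart and lower (31.25%) and 1 apart and higher (6.25%), beside 17.3% and 18.1% of all genes. The median was -0.47 (-0.13 without PBS replicate 2, and 0.12 against the 4 T cell genes). Tox, the nuclear factor that sustains the exhausted state, measured 165 and 195 CPM with PBS and 52.3 and 97.9 CPM with IL-5 (log2 fold change -1.26, SE 0.38). Btla, an inhibitory receptor, measured 51.2 and 27.4 CPM with PBS and 0.547 and 1.83 CPM with IL-5 (log2 fold change -5.04, SE 1.11), so both IL-5 libraries were close to 0. Pdcd1, which encodes PD-1, measured 269 and 177 CPM with PBS and 58.5 and 164 CPM with IL-5 (log2 fold change -1.003, SE 0.52), and here IL-5 replicate 2 came close to PBS replicate 2. Nr4a2, an orphan nuclear receptor induced by receptor signalling, was the member apart and higher (19.5 and 31.5 CPM with PBS and 58.7 and 49.7 CPM with IL-5; log2 fold change 1.09, SE 0.54).

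Residency genes and egress genes differed in opposite directions under TMM scaling. Of 16 residency genes tested, 11 were below 0 and 8 (50%) were apart and lower, with a median of -0.42 that became 0.12 against the 4 T cell genes. Cxcr6 measured 949 and 1160.5 CPM with PBS and 615 and 709 CPM with IL-5 (log2 fold change -0.67, SE 0.18). Itga1, the collagen-binding integrin CD49a, measured 154 and 209.8 CPM with PBS and 109 and 89.5 CPM with IL-5 (log2 fold change -0.88, SE 0.29). Runx3, a transcription factor of the CD8 lineage and of resident cells, measured 121 and 135 CPM with PBS and 59.2 and 66.1 CPM with IL-5 (log2 fold change -1.03, SE 0.31). Cd69, the protein that blocks egress by removing S1pr1 from the surface, was level, with 231 and 276 CPM with PBS and 283 and 230.2 CPM with IL-5 (log2 fold change 0.017, SE 0.23). Of 11 genes of egress and lymph node homing, 9 were above 0, with a median of 0.32 (0.12 in the absence of IL-5 replicate 1, and 0.92 against the 4 T cell genes). Ccr7, the receptor that guides T cells to lymph nodes, measured 76 and 55.8 CPM with PBS and 109 and 125 CPM with IL-5 (log2 fold change 0.83, SE 0.34). S1pr1, the receptor for egress into blood and lymph, measured 172 and 181 CPM with PBS and 250.4 and 213 CPM with IL-5 (log2 fold change 0.39, SE 0.23). These 2 of the 11 were apart and higher, a share of 18.2% beside 18.1% of all genes, a share near the background.

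Among 20 transcription factors of memory and effector cells, 9 were above 0 and 11 below, with a median of -0.02 (0.55 against the 4 T cell genes). Zeb1, a repressor in memory T cells, measured 60.5 and 57.2 CPM with PBS and 16.4 and 27.1 CPM with IL-5 (log2 fold change -1.44, SE 0.54). Id2, a regulator of effector CD8 cells, measured 1414 and 1145 CPM with PBS and 998 and 953 CPM with IL-5 (log2 fold change -0.39, SE 0.16). The chemokine receptors had a median of 0.12 (0.66 against the 4 T cell genes). Of 16 tested, 4 were apart and higher (25%) and 3 apart and lower (18.75%), beside 18.1% and 17.3% of all genes. Cxcr3, the receptor of interferon-induced chemokines, was among those apart and lower, with 582 and 619 CPM with PBS and 416 and 457 CPM with IL-5 (log2 fold change -0.46, SE 0.17).

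The receptor for IL-5 itself was scarcely measured. Il5ra had 0 counts in each of the 4 T cell libraries, which allows up to 0.103 to 0.114 CPM per library by counting error alone. Genes at 0 in 1 library and at 5 CPM or more in its replicate were common, as given below, so the level may have been larger. Csf2rb measured 0 and 0.114 CPM with PBS and 1.64 and 1.29 CPM with IL-5. Of 19 genes of the IL-5 receptor and JAK-STAT5 path tested, 6 were above 0 and 13 below. In this list 5 were apart and higher (26.3%) and 6 apart and lower (31.6%), beside 18.1% and 17.3% of all genes. The median was -0.36 (-0.02 without PBS replicate 2, and 0.27 against the 4 T cell genes). The feedback inhibitors differed in direction. Cish measured 339 and 308 CPM with PBS and 305 and 168 CPM with IL-5 (log2 fold change -0.45, SE 0.32) and Socs2 36.2 and 51.3 CPM with PBS and 44 and 24.3 CPM with IL-5 (log2 fold change -0.36, SE 0.57). Against the 4 T cell genes these were at 0.16 and 0.27. Socs1 was apart and lower (107 and 109.6 CPM with PBS and 80.3 and 73.5 CPM with IL-5; log2 fold change -0.49, SE 0.31), and Socs3 apart and higher (23.4 and 45.9 CPM with PBS and 84.9 and 47.5 CPM with IL-5; log2 fold change 0.93, SE 0.57). Jak1, a kinase of many cytokine receptors, measured 624 and 795 CPM with PBS and 553 and 413 CPM with IL-5 (log2 fold change -0.55, SE 0.22). Pim2, a survival kinase, measured 104 and 115 CPM with PBS and 44 and 66.5 CPM with IL-5 (log2 fold change -0.98, SE 0.38). The survival genes Bcl2 and Bcl2l1 differed in opposite directions, each with groups apart, at 572 and 464 CPM with PBS and 291 and 407 CPM with IL-5 (log2 fold change -0.57, SE 0.24) and 89.8 and 66.6 CPM with PBS and 119 and 133 CPM with IL-5 (log2 fold change 0.69, SE 0.32). The cytokine receptors of T cells had a median of -0.16 (0.40 against the 4 T cell genes), with 7 of 24 apart and lower (29.2%). Il27ra, a receptor chain for interleukin-27, gave log2 fold change -0.73, SE 0.31, and Il2rg, the common gamma chain, log2 fold change -0.24, SE 0.16.

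Interferon-induced genes, the products of antiviral signalling, were mostly lower in the IL-5 libraries. Of 53 type I interferon genes tested, 44 were below 0 and 25 (47.2%) were apart and lower, with a median of -0.64 (-0.42 without PBS replicate 2). Of 26 interferon gamma genes, 24 were below 0 and 17 (65.4%) were apart and lower, with a median of -0.63, beside 17.3% and -0.01 for all genes tested. Against the 4 T cell genes these medians were -0.01 and -0.06, and against the median of all genes on that scale -0.57 and -0.62. On that scale 11 type I genes (20.8%) were apart and lower and 10 (18.9%) apart and higher, and of the interferon gamma genes 3 (11.5%) and 5 (19.2%), beside 5.69% and 39.6% of all genes. The direction of these lists in the same files was known when the lists were made, so it is no independent result.

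Many of these genes are bound at their promoters by interferon regulatory factors at the interferon-stimulated response element, whose core can be written GAAANNGAA (TTCNNTTTC on the other strand). The 4 promoters below belong to the interferon genes with the smallest p among those apart and lower that hold the core, and show where it lies. Each is printed 5′ to 3′ on the gene's strand from RefSeq (GRCm38.p6) with the core in capitals.
Ifit1bl1 (chr19:34602127-34602185, minus strand): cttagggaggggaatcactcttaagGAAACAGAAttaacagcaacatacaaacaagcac
Ifi203 (chr1:173942494-173942552, minus strand): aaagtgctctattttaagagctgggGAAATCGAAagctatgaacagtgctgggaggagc
Ifit3 (chr19:34583349-34583407, plus strand): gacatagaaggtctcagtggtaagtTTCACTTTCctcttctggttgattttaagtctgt
Isg15 (chr4:156200863-156200921, minus strand): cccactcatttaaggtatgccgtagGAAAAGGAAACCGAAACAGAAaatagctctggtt

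In the Isg15 promoter 3 such cores overlap, and the windows start 217, 60, 180 and 103 bases before the transcription start in the order shown. Over the 300 bases of each promoter, from 250 before to 50 after the start, the core occurred on either strand in 23 of 39 type I interferon genes with a promoter sequence (59.0%) and in 14 of 20 interferon gamma genes (70%), against 943 of 10877 tested genes (8.67%) and 0 of 11 T cell markers. Within the type I list it occurred in 13 of 18 genes that were apart and lower (72.2%) and in 10 of the 21 others (47.6%). Among the interferon gamma genes that were tested, the counts were 11 of 13 (84.6%) and 1 of 5 (20%), and the untested ones are left out. The split into apart and lower or not comes from these same libraries, and the lists were made with their direction known. No difference between these shares was tested, so no link of the core to the lower values can be read from them. A match of these letters is a description and no measured binding.

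The values of the genes shown differed in spread. Ifit1bl1, of the family of interferon-induced RNA-binding proteins, measured 113 and 230.2 CPM with PBS and 56.4 and 48.3 CPM with IL-5 (log2 fold change -1.71, SE 0.43). Ifi203, a DNA-sensing family member, measured 244 and 193 CPM with PBS and 101 and 124 CPM with IL-5 (log2 fold change -0.96, SE 0.27). Ifit3 measured 93 and 139 CPM with PBS and 51.2 and 49.3 CPM with IL-5 (log2 fold change -1.21, SE 0.37). Isg15, a ubiquitin-like modifier, measured 107 and 118 CPM with PBS and 39.1 and 58.6 CPM with IL-5 (log2 fold change -1.20, SE 0.38). PBS replicate 2 was the highest library for Ifit1bl1, Ifit3 and Isg15, while Ifi203 was highest in PBS replicate 1. All 4 stayed below 0 against the 4 T cell genes, at -1.10, -0.40, -0.62 and -0.65.

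Further interferon genes followed by role. Irf7, the factor that amplifies the type I response, overlapped between groups at 92.2 and 212 CPM with PBS and 147 and 113 CPM with IL-5 (log2 fold change -0.23, SE 0.44). Cxcl10, the chemokine ligand of CXCR3, measured 62.8 and 158 CPM with PBS and 48.5 and 33.4 CPM with IL-5 (log2 fold change -1.43, SE 0.55). Cd274, which encodes the checkpoint ligand PD-L1, measured 59.1 and 69.2 CPM with PBS and 28.5 and 28 CPM with IL-5 (log2 fold change -1.18, SE 0.46). Irgm1, an immunity-related GTPase, gave log2 fold change -0.82, SE 0.27 and Iigp1, another, log2 fold change -1.02, SE 0.40. The abundant members Ifi27, a mitochondrial protein, and Lgals3bp, a secreted glycoprotein, were not apart and lower, at 449 and 479 CPM with PBS and 487 and 571 CPM with IL-5 and 389 and 222 CPM with PBS and 185 and 334 CPM with IL-5.

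**Figure D3:**
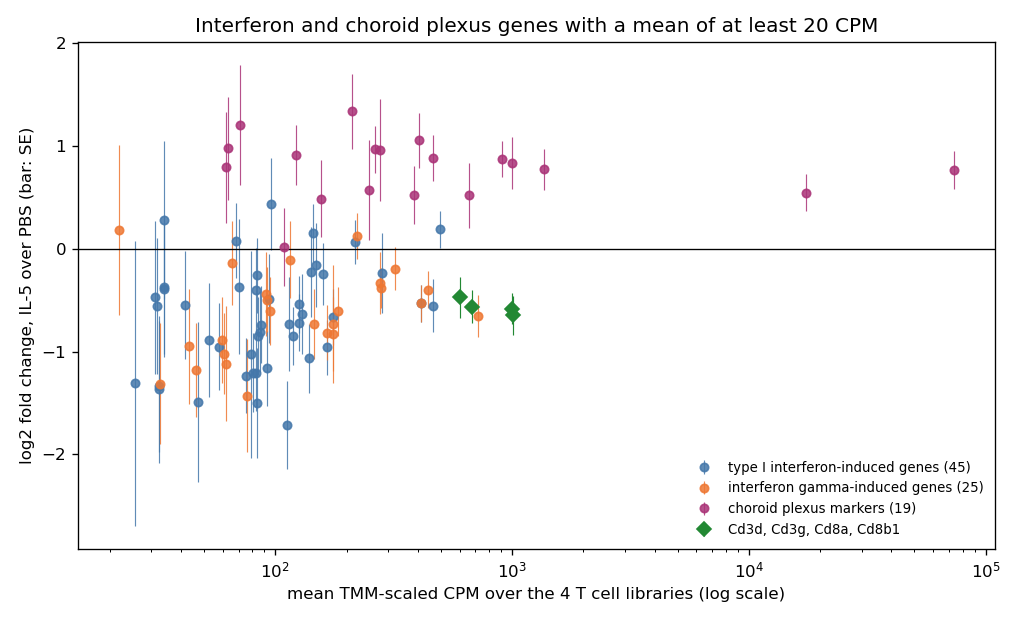
Log2 fold change (IL-5 over PBS, bars show 1 SE) against mean TMM-scaled CPM (log axis) for 45 type I interferon genes, 25 interferon gamma genes and 19 choroid plexus markers with a mean of at least 20 CPM, and for 4 T cell genes (green diamonds). Most interferon genes lie below 0, scattered around and below the T cell genes at -0.47 to -0.65, and the choroid plexus markers lie above 0.

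MHC class I and its peptide loading genes, which present antigen to CD8 cells and are raised by interferon gamma, were lower in 16 of 19 tested, 9 of them apart (47.4%), with a median of -0.27 (0.34 against the 4 T cell genes). B2m, the light chain of MHC class I, measured 7427 and 8309 CPM with PBS and 6331 and 6328 CPM with IL-5 (log2 fold change -0.31, SE 0.12). H2-K1, a heavy chain, measured 3822 and 4525 CPM with PBS and 3487 and 3565 CPM with IL-5 (log2 fold change -0.24, SE 0.13). H2-T23, a non-classical heavy chain that displays peptides to CD94 receptors, measured 634 and 606 CPM with PBS and 369.7 and 497 CPM with IL-5 (log2 fold change -0.52, SE 0.21). Psmb8, a subunit of the immunoproteasome that trims such peptides, measured 829 and 920.4 CPM with PBS and 472 and 642 CPM with IL-5 (log2 fold change -0.65, SE 0.20). H2-K1, H2-D1 and their relatives are near-identical in sequence, so reads may be split between them, and their single values are uncertain.

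Genes of acute activation were split in direction. Of 30 NF-kB and TNF response genes, 13 were above 0 and 17 below, with a median of -0.07 (0.51 against the 4 T cell genes). Of 18 immediate early genes 8 were above and 10 below, with a median of -0.12 (0.53 on that scale). Icam1, an adhesion molecule, was lower in both IL-5 libraries (236 and 232 CPM with PBS and 161 and 140.4 CPM with IL-5; log2 fold change -0.63, SE 0.23), and Junb, a subunit of AP-1, overlapped (1205 and 1459 CPM with PBS and 1406 and 1023 CPM with IL-5). The heat shock chaperones had a median of -0.03 (0.55 on that scale).

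Respiratory chain genes were mostly higher in the IL-5 libraries. Of 73 nuclear-encoded genes of oxidative phosphorylation tested, 70 were above 0, and 44 (60.3%) were apart and higher, beside 18.1% of all genes. The median was 0.37, with quartiles of 0.23 and 0.54, 0.22 without IL-5 replicate 2, and 0.93 against the 4 T cell genes. Cox6a1, a subunit of cytochrome c oxidase, measured 549 and 504 CPM with PBS and 778 and 866 CPM with IL-5 (log2 fold change 0.64, SE 0.16). Cox7b, another, measured 338 and 319.7 CPM with PBS and 504 and 569 CPM with IL-5 (log2 fold change 0.71, SE 0.18). DESeq2 called these 2 of the 73 higher, beside 1.15% of all genes with an adjusted p. Ndufv2, of complex I, measured 225 and 153 CPM with PBS and 355 and 355 CPM with IL-5 (log2 fold change 0.91, SE 0.26). Uqcrq, of complex III, measured 263 and 247 CPM with PBS and 388 and 461 CPM with IL-5 (log2 fold change 0.74, SE 0.20). The summed level of the list was 22256 and 18913 CPM with PBS and 24929 and 29483 CPM with IL-5. Its order over the libraries, lowest in PBS replicate 2 and highest in IL-5 replicate 2, was that of the choroid plexus list, and the part of that tissue in it was not tested.

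Other housekeeping lists differed less. Of 79 cytosolic ribosomal protein genes, 59 were below 0 and 30 apart and lower (37.97%). The median was -0.12, or -0.029 in the absence of IL-5 replicate 1 and 0.45 against the 4 T cell genes. Rpl13, of the large subunit, measured 986 and 1005 CPM with PBS and 752 and 768 CPM with IL-5 (log2 fold change -0.39, SE 0.15). Of 20 glycolysis genes, 13 were above 0 and 7 apart and higher (35%). Their median was 0.30, or 0.16 in the absence of IL-5 replicate 2 and 0.87 against the 4 T cell genes. Tpi1, triosephosphate isomerase, measured 261 and 181 CPM with PBS and 334 and 399 CPM with IL-5 (log2 fold change 0.73, SE 0.26), while Hk1, the hexokinase of the first step, was lower in both IL-5 libraries (184 and 168 CPM with PBS and 99.4 and 127 CPM with IL-5; log2 fold change -0.64, SE 0.27).

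**Figure D4:**
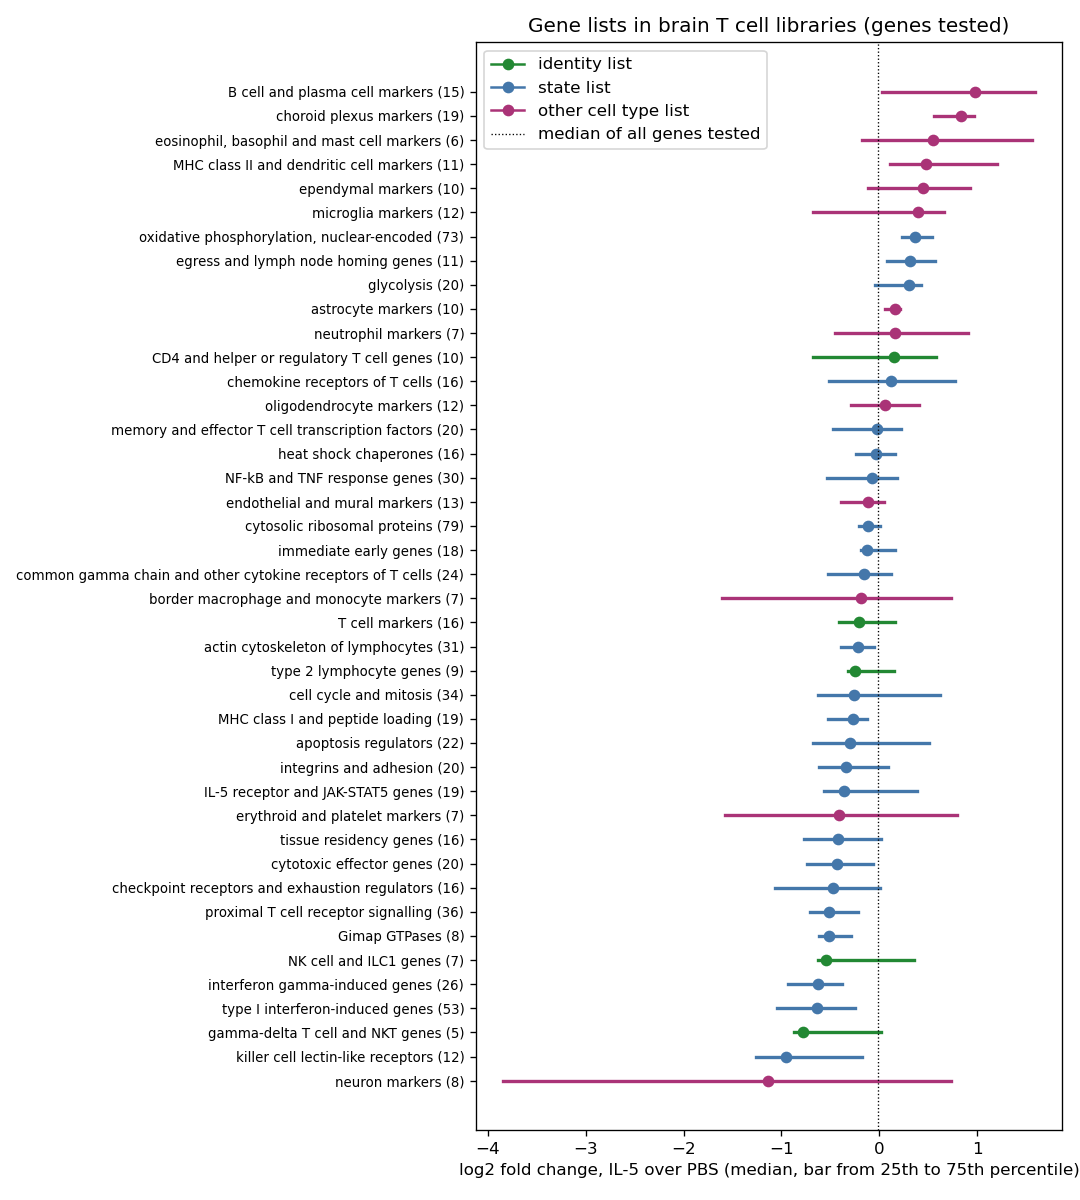
Median log2 fold change (IL-5 over PBS) of each list with at least 5 genes tested, with a bar from the 25th to the 75th percentile of its genes, the number tested in brackets and the median of all genes as a dotted line. Interferon, receptor signalling and Gimap lists lie below the line, choroid plexus and oxidative phosphorylation above it, and the lists of sparse markers such as neuron markers have the widest bars.

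Lymphocyte structure and survival genes were mostly lower under TMM scaling. All 8 Gimap genes, GTPases needed for the survival of peripheral T cells, were below 0. Of these, 5 were apart and lower (62.5%), beside 17.3% of all genes. The median was -0.51 (-0.29 without PBS replicate 2, and 0.06 against the 4 T cell genes). Gimap4 measured 1169 and 1393 CPM with PBS and 797 and 1002 CPM with IL-5 (log2 fold change -0.51, SE 0.18). Gimap1 measured 303 and 325 CPM with PBS and 108 and 211 CPM with IL-5 (log2 fold change -0.98, SE 0.35). Of 20 integrin and adhesion genes, 14 were below 0 and 9 apart and lower (45%), with a median of -0.34 (0.24 against the 4 T cell genes). Itgb1, the beta chain of the VLA integrins (GRCm38 chromosome 8, 128685654 to 128733200), measured 1021 and 958 CPM with PBS and 642 and 655 CPM with IL-5 (log2 fold change -0.61, SE 0.15). Spn, the sialoglycoprotein CD43, measured 114 and 127 CPM with PBS and 63.7 and 69.5 CPM with IL-5 (log2 fold change -0.85, SE 0.32). Of 31 genes of the lymphocyte actin cytoskeleton, 25 were below 0 and 15 apart and lower (48.4%), with a median of -0.22 (0.32 against the 4 T cell genes).

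Cyfip2, a subunit of the WAVE complex that drives actin branching (GRCm38 chromosome 11, 46193850 to 46312859), stood out in that list. It measured 279.7 and 301 CPM with PBS and 119.8 and 122 CPM with IL-5 (log2 fold change -1.26, SE 0.22), with replicates that nearly coincided. It had the smallest p of all lower genes with a mean of at least 5 CPM, and its value against the 4 T cell genes was -0.68. The other lower genes with the smallest p were Btla, Ptpn22 and Itgb1, given above, Efr3a, an anchor of a lipid kinase at the plasma membrane (336 and 307 CPM with PBS and 172 and 177 CPM with IL-5; log2 fold change -0.88, SE 0.21), Ralgapa1, an inhibitor of Ral GTPases (147 and 179.9 CPM with PBS and 63.2 and 77 CPM with IL-5; log2 fold change -1.22, SE 0.30), and Slc2a6 and Lrrn3, which stood at 0 in both IL-5 libraries. Slc2a6, a hexose transporter, measured 27.8 and 10.3 CPM with PBS and was at least 176-fold lower. Lrrn3, a leucine-rich repeat membrane protein, measured 17.7 and 16.6 CPM with PBS and was at least 158-fold lower. Such folds are computed against 3 counts per library, a limit that covers counting error alone.

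The higher genes with the smallest p were largely of this on-or-off kind. Fcmr, the receptor for the constant region of IgM (GRCm38 chromosome 1, 130865669 to 130880791), had 0 counts in both PBS libraries and 45.7 and 20.9 CPM with IL-5, at least 294-fold higher. Rassf7, a Ras association domain protein, had 38 and 23 CPM (at least 270-fold), and Lrrc74b 30.2 and 17.7 CPM (at least 212-fold), both from 0. Arvcf, a catenin of cell junctions, measured 0.15 and 0.341 CPM with PBS and 96 and 17.1 CPM with IL-5. Acap3, a GTPase-activating protein for Arf GTPases, measured 1.31 and 1.21 CPM with PBS and 44.2 and 29.2 CPM with IL-5. Dcaf12l1 measured 0.863 and 2.39 CPM with PBS and 46.4 and 52.1 CPM with IL-5. Wdr6, a protein of tRNA modification, was expressed in all 4 libraries, with 35.8 and 50.3 CPM with PBS and 172 and 130.5 CPM with IL-5 (log2 fold change 1.81, SE 0.36). In all, 42 genes were at 0 in both PBS libraries and at 5 CPM or more in both IL-5 libraries, and 10 the reverse. The replicates show how common such jumps are: 630 genes were at 0 in 1 PBS library and at 5 CPM or more in the other, and 707 likewise within the IL-5 pair.

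Prg2, the major basic protein of eosinophil granules, was among the genes that appeared after IL-5, with 0 and 0.114 CPM with PBS and 34.9 and 25 CPM with IL-5 (log2 fold change 8.93, SE 1.92). Epx, the peroxidase of the same granules, had 0 and 0 CPM with PBS and 0 and 12 CPM with IL-5, so it was counted in 1 library alone. Of 16 listed markers of eosinophils, basophils and mast cells, 4 had 0 counts throughout and 6 were tested. Of these 6, 3 were above 0 and 3 below, with 1 apart and higher (16.7%), beside 18.1% of all genes. The 16 markers summed to 42.8 and 73.4 CPM with PBS and 113 and 80.2 CPM with IL-5. Of 15 B cell and plasma cell markers tested, 12 were above 0 and 8 apart and higher (53.3%), with a median of 0.98 (0.48 without PBS replicate 2, and 1.55 against the 4 T cell genes). Jchain, the joining chain of secreted IgM and IgA, measured 0 and 7.05 CPM with PBS and 192 and 137 CPM with IL-5 (log2 fold change 5.54, SE 1.80). Fcrla, an Fc receptor-like protein of B cells, measured 9.45 and 5.08 CPM with PBS and 35.5 and 26.5 CPM with IL-5 (log2 fold change 2.09, SE 0.88). Cd79a, the Ig-alpha signalling chain, overlapped between groups at 103 and 22.7 CPM with PBS and 68.1 and 61.1 CPM with IL-5, so not all B cell markers were apart. The summed level of this list was 465 and 358 CPM with PBS and 796 and 643 CPM with IL-5.

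The response of T cells was also set against that of microglia in a fit of all 8 libraries, by the test of the difference of both responses. Microglia IL-5 replicate 1 differed in quality, with 25.5% of reads outside annotated genes against 15.2% to 17.0% in the other microglia libraries. Its 10 most abundant genes held 25.9% of its gene counts, against 19.8% to 20.9%. The part of this library in the microglia values was not tested. No gene passed: 0 of 15397 tested (0%) by edgeR, with a smallest adjusted p of 0.0714, 496 above and 300 below at an unadjusted p under 0.05, and 176 above and 75 below in DESeq2. Prg2 had the smallest p, with a difference of 9.35 (SE 1.08). Its log2 fold change in T cells was 8.93 (SE 1.92). In microglia it measured 90.4 and 115 CPM with PBS and 61.1 and 70.4 CPM with IL-5. Slpi, a secreted protease inhibitor, appeared in the T cell libraries in the same way (0 and 0.114 CPM with PBS and 24 and 10.9 CPM with IL-5), with a difference of 8.25 (SE 1.15). Sh2d1a, the adaptor SAP of lymphocytes, had the smallest p in the other direction, -11.32 (SE 1.25), from 0 to 6.37 and 6.02 CPM in microglia against 104 and 122 CPM with PBS and 69.7 and 112 CPM with IL-5 in T cells. For Ttr the difference was -0.09 (SE 0.51), and microglia libraries measured 39917 and 33495 CPM with PBS and 55913 and 59213 CPM with IL-5, so this transcript was higher after IL-5 in both sorted populations. For Cd8b1 the difference was -1.54 (SE 2.15), and for Isg15 -1.79 (SE 0.65).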

How the data were processed

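The authors deposited a single table of raw counts, with 24953 rows and 1 column for each of 8 libraries; its values were used unscaled. Reads were single-end and 75 bases long, per the labels. Tools in the submitters' processing notes, which give no roles, include STAR 2.5.3a (an aligner), Cufflinks 2.0 and DESeq2 1.1. The counting tool and its strand setting are not given in the sources used here. Library sizes exclude 2 summary rows: reads outside annotated genes were 15.9% to 19.8% of the T cell columns and ambiguous reads 1.54% to 1.77%. Rows with date-like names (26) and 1 row with a cell that was no number were left out, and 24924 genes stayed. Of their symbols, 24390 (97.9%) matched exactly 1 gene of GENCODE M21, which gave coordinates and exon lengths.

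The main test was the quasi-likelihood test of edgeR 4.0.16 in R 4.3.3, with TMM scaling, robust dispersion and filterByExpr at a minimum count of 10. It was run on the 4 T cell libraries, and with an interaction term on all 8. Tests were two-sided, adjusted by Benjamini-Hochberg at a threshold of 0.05. The exact permutation test of 2 against 2 cannot go below p = 0.333 and was not used. Limits for a count of 0 rest on 3 counts per library (0.103 to 0.114 CPM) and cover counting error only, because PCR copies of a molecule are counted separately. The fits of both comparisons were run on simulated data with a fixed spread and set changes in well-counted genes only. That spread was not taken from these libraries, so the simulation does not show how the fits perform on them.

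Groups, tests and the 43 gene lists (853 genes, 12 of them not in the table analysed) were chosen with earlier results of these data known. Named genes are 8 higher and 8 lower ones ranked first by p at a mean of at least 5 CPM (where fewer than 5 pass), members of lists of up to 20 genes, the 6 with the smallest p and the 4 most abundant of longer lists, the 5 most abundant genes, a fixed set of markers and cytokine genes, and, for the difference of responses, 5 on each side ranked first by p. Some genes that this rule names are not reported here. Alternatives were DESeq2 1.42.0, RLE factors, library size only, scaling to the T cell marker list, no filter, a filter of 5 CPM in 2 libraries, the replicate block, all 8 libraries, each library left out, and, added after seeing the data, scaling to 4 T cell genes. Plots used matplotlib 3.10.9 on Python 3.11.15.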

Additional observations from a re-analysis of the deposited data

Results flagged for a closer look

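All 43 lists were searched for means that were apart in both sorted populations but in opposite directions, and 2 were found. How many of 43 lists would show this without any effect was not computed, so the 2 are a description. The means of the choroid plexus, oxidative phosphorylation and type I interferon lists were apart in the same direction in both populations. The mean log2 CPM of the 8 Gimap GTPases was lower in both IL-5 libraries of T cells than in both PBS libraries (difference -0.50) and higher in both IL-5 libraries of microglia (1.91), so that the T cell difference minus the microglia difference was -2.41. The mean of the 20 cytotoxic effector genes was -0.34 in T cells and 0.62 in microglia, a difference of -0.96. Neither difference was tested over libraries at the level of the list. Microglia IL-5 replicate 1 differed in quality from the other microglia libraries, as given above, and its part in these means was not tested. In the microglia libraries the Gimap means were 2.96 and 1.55 after PBS and 3.77 and 4.56 after IL-5, far below the 7.45 to 8.17 of the T cell libraries.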

How the results depend on the processing

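In the T cell comparison the main test called 0 genes. RLE factors, library size, scaling to the marker list or to 4 T cell genes and the 5 CPM filter also gave 0 in each direction. DESeq2 called 177 higher and 51 lower. No filter gave 2 higher, and so did all 8 libraries in 1 fit. Leaving out 1 library gave 0 to 1 higher (1 without PBS replicate 2) and 0 lower; a library left alone in its group is assumed to vary like the others. For the difference of responses, DESeq2 called 176 above and 75 below and no filter 27 and 4. Leaving out 1 library gave 0 to 178 above and 0 to 54 below, both highest without microglia IL-5 replicate 2. Replicates of both groups share only a number (correlation of their deviations 0.0163), and with the replicate block 0 genes were called in each direction, with 239 above 0 and 219 below at an unadjusted p under 0.05.

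Scaled to Cd3d, Cd3g, Cd8a and Cd8b1, 28 of 109 genes named turned from below to above 0: B2m 0.27, Ccl5 0.20, Cd247 0.27, Cd3d 0.088, Cd3e 0.21, Cd8a 0.014, Cish 0.16, Cxcr3 0.11, Fyn 0.062, Gimap4 0.058, H2-D1 0.23, H2-K1 0.34, H2-T23 0.042, Id2 0.19, Ifng 0.51, Il2rg 0.33, Irf7 0.39, Jak1 0.052, Junb 0.47, Klrc1 0.40, Lgals3bp 0.29, Ncr1 0.12, Nkg7 0.14, Ptprc 0.14, Rpl13 0.19, Sh2d1a 0.24, Socs1 0.093 and Socs2 0.27. By library size only, Cd69 -0.033 and Cd79a -0.0072 turned below 0. Scaled to the T cell marker list, the values that turned were Ifng 0.12, Irf7 0.051 and Junb 0.085. Leaving out 1 T cell library gave Cd247 -0.67 to 0.15, Cd28 -0.12 to 0.60, Cd4 -0.12 to 1.09, Cd69 -0.15 to 0.16, Cd79a -0.68 to 1.51, Ifng -0.25 to 0.088, Irf7 -0.71 to 0.49, Itgae -0.46 to 1.58, Itgb7 -0.095 to 0.25, Junb -0.39 to 0.076, Lgals3bp -0.72 to 0.22, Ncr1 -11.09 to 0.40, Socs2 -0.86 to 0.0075 and Tcf7 -0.035 to 0.54. Scaling to 4 genes moved the median of all genes to 0.56, so signs turned there with the scale. The cause of the other turns was not tested. Of 43 list medians, 24 changed sign under scaling to 4 genes, 9 under scaling to the marker list, 5 in the fit of all 8 libraries, 4 with the replicate block, 4 with the 5 CPM filter, 2 each under DESeq2 and no filter, and 0 under RLE factors or library size. Without PBS replicate 1 or 2 it was 5 and 9, and without IL-5 replicate 1 or 2 it was 6 and 11.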
